A study of Saccharomyces cerevisiae BY4741 with 12 samples.

Results

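A set of 7 genes of copper and cadmium handling was examined in 4 strains of Saccharomyces cerevisiae, the WT and the mutants set2Δ, set2-Y149F and set2-Y236F. They are PCA1 (YBR295W), CCC2 (YDR270W), CTR1 (YPR124W), CUP2 (YGL166W), CRS5 (YOR031W) and the 2 annotated copies of the metallothionein gene, CUP1-1 (YHR053C) and CUP1-2 (YHR055C). They are 7 of 6632 annotated rows with a value per strain, and were picked by name with their levels in view, so that their differences between strains are given as a description. Of the 777 antisense transcripts that the authors listed as raised in set2Δ, 2 lie over members, 1 over PCA1 and 1 over CCC2.

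Polyadenylated RNA had been sequenced by strand, with 12 libraries that the labels divide into 3 for each strain, from cells of the BY4741 laboratory background grown at 30 °C to an OD600 of 0.8. Set2 is the enzyme that methylates lysine 36 of histone H3. The set2Δ strain lacks SET2 and carried the empty vector pRS415, while set2-Y149F and set2-Y236F are set2Δ cells with a mutant SET2 on that plasmid. In the study's account, the Y149F enzyme leaves trimethylation and the Y236F enzyme leaves mono- and dimethylation. The sources name no plasmid with an intact SET2, so that the SET2 level of the plasmid strains cannot be told apart from the mutation. They also name no plasmid for the WT. In every comparison with the WT, the vector and its leucine marker thus cannot be told apart from the state of SET2. The SET2 transcript stood at 29.1 FPKM in WT cells against 0.190 in set2Δ cells, 253 in Y149F cells and 271 in Y236F cells. The methods give rich YPD or synthetic SD medium but not the one used for each strain, while elsewhere the study describes all these cultures as grown in a nutrient-rich medium, and no copper content is stated.

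Each value is the authors' average FPKM of a strain, that is, fragments per kilobase of transcript scaled to sequencing depth. No value per library was used, so the depth per library is unknown, no SD or test can be given for any value, and which strains differ beyond their spread cannot be said. A gene was called higher or lower when 2 averages were 2-fold apart or more after log2(FPKM + 1), which understates changes of genes at low level. FPKM is set to transcript length, so levels were put in order between genes. How that length was set, also for short genes such as CUP1-1 and CRS5, is not known here. Orders and ratios between rows are thus approximate. Where 4 values stand without strain names, they are those of the WT, set2Δ, the Y149F mutant and the Y236F mutant.

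Copper is an essential cofactor and toxic in excess, and yeast keeps the free ion scarce. At low copper the activator Mac1 drives the genes of uptake, and at high copper the activator Cup2, also named Ace1, drives the metallothioneins, small proteins rich in cysteine that bind the metal. Inside the cell, chaperones carry copper to its users, among them Atx1, which hands it to the Golgi pump Ccc2 for the ferroxidase Fet3. Pca1 is a pump of the same P-type ATPase family that exports cadmium, and the allele of common laboratory strains is known not to protect against cadmium.

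The coding sequence of the metallothionein gene is shown because both annotated copies share it base for base, with the in-frame cysteine codons in capitals. CUP1-1 lies on the minus strand at chrVIII:212535-212720 of sacCer3, the build used throughout, and CUP1-2 at chrVIII:214533-214718.
CUP1-1: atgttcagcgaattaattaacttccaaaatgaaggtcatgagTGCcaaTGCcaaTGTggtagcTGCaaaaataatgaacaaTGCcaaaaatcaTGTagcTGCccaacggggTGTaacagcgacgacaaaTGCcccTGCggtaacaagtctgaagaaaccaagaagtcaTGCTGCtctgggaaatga
It holds 61 codons before the stop, of which 12 are for cysteine. The copies sit in a tandem repeat with a step of 1998 bases, and 1988 bases, from 212266 to 214253 and again from 214264 to 216251, are identical. Reads from one copy could not be told apart from those of the other there. CRS5, on the plus strand at chrXV:389213-389422, is annotated as a pseudogene in RefSeq, and its sequence is shown for the in-frame stop codon that the reference genome carries, in capitals.
CRS5: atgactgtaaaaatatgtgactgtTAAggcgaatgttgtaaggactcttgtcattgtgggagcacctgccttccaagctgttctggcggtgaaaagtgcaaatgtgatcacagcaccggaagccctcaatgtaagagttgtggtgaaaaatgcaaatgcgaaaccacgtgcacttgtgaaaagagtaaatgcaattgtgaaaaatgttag
That stop is codon 9, and the frame goes on to 69 codons with 19 for cysteine. No library was genotyped here, and the reads at that codon were not analysed here.

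In set2Δ, 3 of the 7 genes were called higher than in the WT and 0 lower, where 2.88% of all annotated rows were called higher and 1.19% lower. These were PCA1, CTR1 and CRS5, and as the genes were picked with these values known, nothing is read from the count. With a pseudocount of 10 in place of 1 none of the 3 reached 2-fold. The median log2 difference of the 7 genes was 0.57 beside -0.07 for all annotated rows. In set2-Y149F, 0 members were called higher and 0 lower, beside 3.57% and 2.07% of all rows. In set2-Y236F the counts were again 0 and 0, beside 3.47% and 1.87%. The medians of the members in these strains were 0.13 and 0.29, with -0.04 and -0.02 for all rows. Between set2-Y149F and set2-Y236F, no member was called either way, where 0.302% of rows were higher in set2-Y149F and 0.317% lower. The 3 comparisons with the WT share the same WT average.

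**Figure D1:**
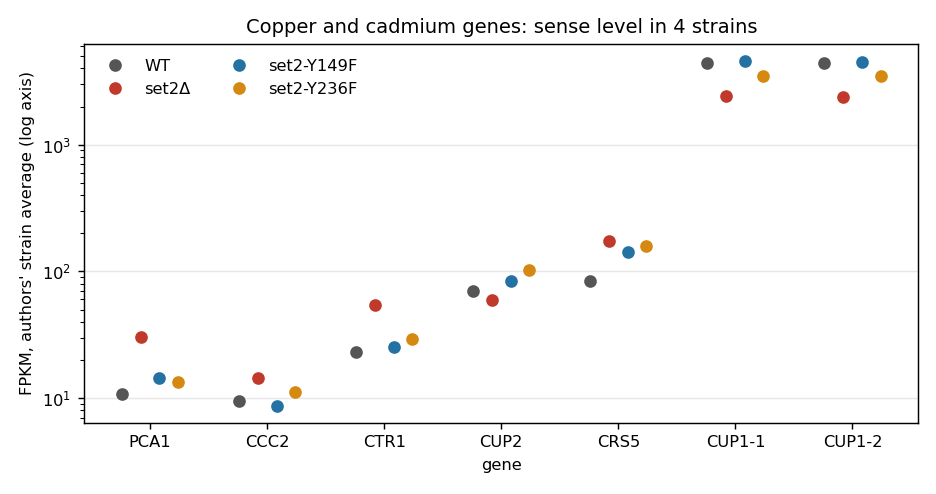
FPKM of the 7 genes (log axis), with 1 point per strain for the authors' average and no error bars, as no value per library was used. The CUP1 copies sit near the top at 2390 to 4561 FPKM, lowest in set2Δ, while PCA1, CTR1 and CRS5 have their highest point in set2Δ.

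PCA1, on the plus strand of chromosome II from 792849 to 796499, showed the largest difference of the 7 genes in set2Δ. Its level was 10.8 FPKM for the WT, with 30.4 for set2Δ, then 14.5 for the Y149F mutant and 13.4 for the Y236F mutant. The set2Δ average was thus 2.80 times that of the WT and stood apart from the other 3, which lay close together. On log2(FPKM + 1) the differences from the WT were 1.41, 0.39 and 0.29, and that of set2Δ was number 97 from the top among the 6632 rows. In order of level PCA1 moved from place 5205 in the WT to 3532 in set2Δ.

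The transcript antisense to PCA1 lies on the minus strand of chromosome II from 792527 to 796498. With 3972 bases it was number 3 in length of the 777, whose median is 871 bases. It covers 3650 of the 3651 bases of the coding region and runs on for 322 bases past the start codon of PCA1. Its level was 1.41 FPKM in WT cells and 30.5 without Set2, and 12.05 and 9.91 with the Y149F and Y236F enzymes. Every mutant average was above that of the WT, and the point mutants had 39.5% and 32.5% of the set2Δ level, where the median listed transcript had 40.2% and 41.0%. The log2 differences were 3.70, 2.43 and 2.18, at places 15, 19 and 24 among the 777. The FPKM of the antisense transcript was 0.13 times that of the sense gene in the WT, 1.00 times in set2Δ cells, 0.83 times in Y149F cells and 0.74 times in Y236F cells.

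The names of the antisense rows were matched to their values by alphabetical order, as given in the processing. Where the assembled antisense transcript of PCA1 begins is shown on the minus strand (chrII:796484-796513) with the bases inside it in capitals.
PCA1 antisense 5′ end: cagcagtacctggacTAAATCTTTGCATAA
The end falls inside the complement of the PCA1 stop codon. It is the edge of an assembly from filtered antisense reads and not a mapped start site.

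The genes beside PCA1 did not follow it. SUL1, a sulfate transporter gene upstream on the same strand, was at 5.72 FPKM in WT cells against 5.15 in set2Δ cells, 6.63 in Y149F cells and 6.31 in Y236F cells. PHO89, a sodium-phosphate cotransporter gene 298 bases beyond the end of PCA1, is read on the strand of the antisense transcript and towards it. It was at 2.80 FPKM for the WT, with 0.606 for set2Δ, then 4.05 for the Y149F mutant and 8.52 for the Y236F mutant. It was lowest in set2Δ, where the antisense transcript was highest, but above the WT in both point mutants, where that transcript was higher too. A link between them was not tested. The log2 difference of PHO89, a gene at low level here, was -1.24 in set2Δ and 1.33 in set2-Y236F, both past the 2-fold call.

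CCC2, on the plus strand of chromosome IV from 1005675 to 1008689, encodes the copper pump of the Golgi. It was the lowest of the 7 genes in every strain, at 9.43 FPKM in WT cells and 14.4 without Set2, and 8.72 and 11.1 with the Y149F and Y236F enzymes. The log2 differences of 0.57, -0.10 and 0.21 stayed under 2-fold. Its neighbours MSW1 and GLO2 did too, with 24.8 and 191 FPKM in WT cells and 21.1 and 196 without Set2. Its antisense transcript (minus strand, 1006456 to 1007580, 1125 bases) lies wholly inside the coding region, covers 37.3% of it and begins 63.2% of the way along. It was at 1.13 FPKM in WT cells against 5.97 in set2Δ cells, 3.07 in Y149F cells and 2.61 in Y236F cells, in the same order of strains as the transcript over PCA1 but at a lower level in each. Its log2 differences were 1.71, 0.93 and 0.76. The 30 bases on each side of that 5′ end follow, with those inside the transcript in capitals (chrIV:1007551-1007610, minus strand).
CCC2 antisense 5′ end: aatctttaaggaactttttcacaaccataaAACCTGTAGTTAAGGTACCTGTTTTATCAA

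Both members' transcripts were at least 2-fold higher in set2Δ on log2(FPKM + 1), as were 83.5% of the listed transcripts, which the authors had chosen for being higher there. On log2(FPKM + 1), that of PCA1 also passed 2-fold in set2-Y149F and in set2-Y236F, beside 33.7% of the list in each strain. That of CCC2 did not on this scale, while its plain FPKM ratios to the WT were 2.72 and 2.31, so the pseudocount decides this call. Both are on the authors' lists for these strains as well. No listed transcript lies over the other 5 genes, among them the CUP1 copies with their far higher sense level.

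**Figure D2:**
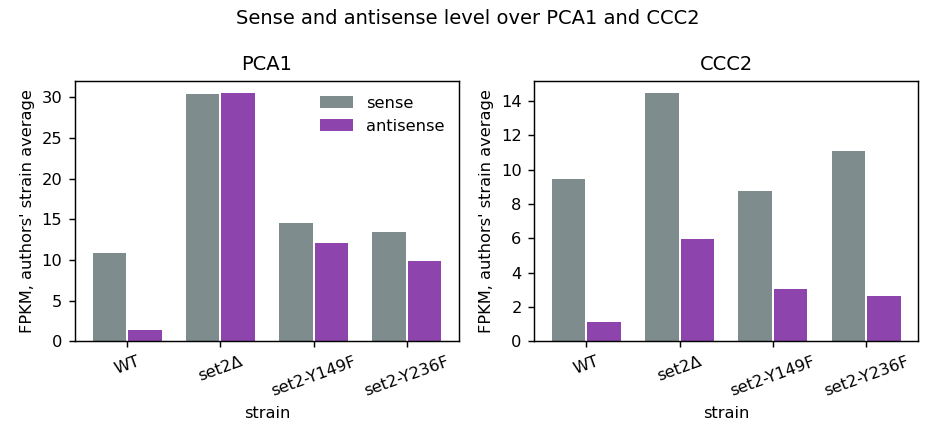
Bars give the FPKM of the sense gene (grey) and of the listed antisense transcript (purple) for PCA1 and CCC2 in the 4 strains, as the authors' averages on linear axes from 0. Over PCA1 the antisense bar goes from 1.41 FPKM in the WT to 30.5 in set2Δ, level with the sense bar, whereas over CCC2 it stays below the sense bar in each strain.

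**Figure D3:**
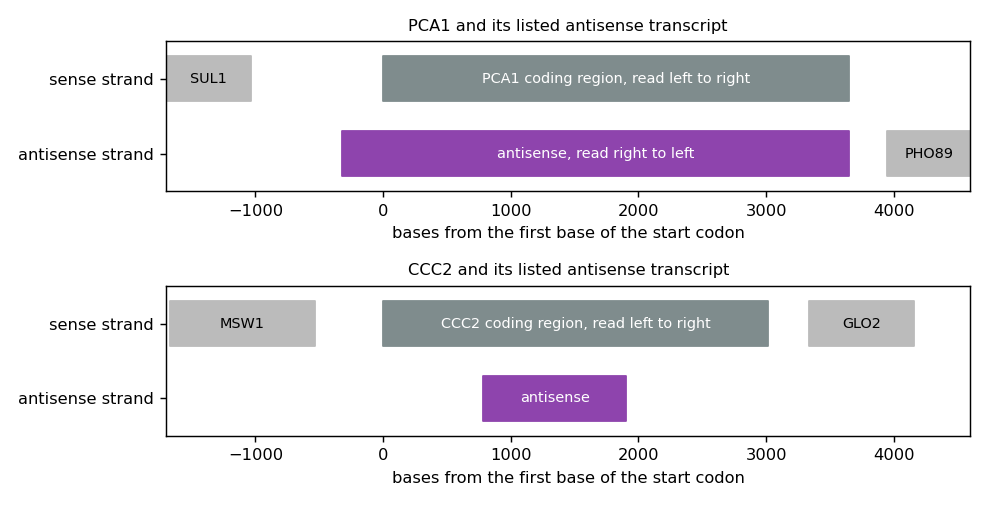
Coding regions (grey), listed antisense transcripts (purple) and neighbouring genes (pale), drawn to scale in bases from the first base of the start codon, with neighbours clipped at the axis ends. The transcript over PCA1 spans the coding region and 322 bases before it, and that over CCC2 spans 1125 bases within the gene.

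Whether the counting of annotated genes used the strand is not stated in the sources used here, and without strand the reads of a gene and of its antisense partner cannot be told apart. The sense average of PCA1 was higher by 19.6 FPKM in set2Δ, and its antisense average, spread over the gene, by 29.1 FPKM. Among 55 genes with an antisense increase of at least 10 FPKM over the gene, 29 had a sense average no higher in set2Δ than in the WT, and 3 had a sense increase as large as the antisense one. The median sense change was -5.39% of the antisense increase, against 67.3% for PCA1.

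Genes whose levels moved across strains most like PCA1 were sought by the distance between their 3 log2 differences from the WT. Of 5764 genes in RefSeq with a mean of at least 1 FPKM, the nearest were the peptide transporter gene PTR2 (distance 0.12), the vacuolar transporter gene NFT1 (0.14), the oligopeptide transporter gene OPT2 (0.19), the meiotic chromosome gene RED1 (0.26) and PIG2 (0.30), which encodes a protein related to targeting subunits of protein phosphatase 1. None of these 5 has a listed antisense transcript, where the whole list names 687 genes beside 6632 annotated rows. Most genes have none, so nothing is read from this. PTR2 was at 8.14, 21.6, 10.5 and 10.4 FPKM and OPT2 at 12.4, 30.2, 16.3 and 15.9 in WT, set2Δ, Y149F and Y236F cells. CTR1 came at place 7 (0.33).

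CTR1, the high-affinity copper transporter gene of the plasma membrane, lies on the plus strand of chromosome XVI from 786208 to 787428. Its level was 22.9 FPKM for the WT, with 53.8 for set2Δ, then 25.2 for the Y149F mutant and 29.1 for the Y236F mutant. As with PCA1, set2Δ stood alone, at 2.35 times the WT, and the point mutants lay within 1.27 times of it. The log2 differences were 1.20, 0.13 and 0.33. Its neighbours AXL1, a protease gene, and YLH47, a gene of a mitochondrial protein, showed no such difference, AXL1 with 25.9 FPKM (WT) and 26.9 (set2Δ) and YLH47 with 30.1 and 34.2.

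The promoter letters that Mac1 is known to bind are shown for CTR1, as its level is set by that activator in the known pathway. The heptamer TTTGCTC, searched on both strands of the 500 bases before the start codon, occurs at 334 and, on the opposite strand, at 311 bases before it, in capitals here (chrXVI:785863-785922, plus strand). FRE1, another known Mac1 target, holds it at 286, 269 and 96 bases, and the first pair is shown (chrXII:568267-568326, plus strand).
CTR1 upstream: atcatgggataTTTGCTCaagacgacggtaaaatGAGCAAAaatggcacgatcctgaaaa
FRE1 upstream: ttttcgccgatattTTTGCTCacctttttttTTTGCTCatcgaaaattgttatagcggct
Of 6002 protein-coding genes, 8.61% have at least 1 match in such a window and 0.350% at least 2. A match is a description of letters only. CTR1 was the single member with one. Among the other metal handling genes examined below, CCS1, CMC1, COT1 and PMR1 also hold a match, and none of them was called in any mutant. FRE2 and FRE7 hold none of these exact letters in their 500 bases, which says nothing of Mac1 there.

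The rest of the uptake genes did not move as a block. FRE2 and FRE7, which encode reductases of the cell surface, were both called higher without Set2, FRE2 going from 3.79 to 14.2 FPKM and FRE7 from 0.804 to 4.34 (log2 1.67 and 1.57). In set2-Y149F they were at 7.18 and 2.81 FPKM and in set2-Y236F at 8.06 and 2.24, and of these only FRE7 in set2-Y149F passed 2-fold on log2(FPKM + 1), with 1.08. By the plain FPKM ratio both genes passed 2-fold in set2-Y236F as well. FRE1 was at 13.0 FPKM in WT cells and 16.1 without Set2, and 11.2 and 13.1 with the Y149F and Y236F enzymes. MAC1 itself was at 20.9, 22.3, 34.5 and 34.2 FPKM in that order, higher in the point mutants than in the WT and set2Δ but under 2-fold. CTR3, a transporter gene known to be silenced by a Ty2 insertion in this background, was at 6.14 to 6.89 FPKM in all 4 strains. On log2(FPKM + 1), 3 of the 7 uptake genes were higher in set2Δ, CTR1 among them, beside 2.88% of all rows. There was 1 in Y149F cells, beside 3.57%, and 0 in Y236F cells, beside 3.47%, and 0 were lower in any mutant.

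The CUP1 copies, the metallothioneins that buffer copper, were the most abundant members in every strain and lowest in set2Δ. CUP1-1 was at 4421 FPKM in WT cells against 2421 in set2Δ cells, 4561 in Y149F cells and 3499 in Y236F cells. CUP1-2 had 4452, 2390, 4523 and 3468 FPKM, strain for strain. The rows differ by no more than 1.28% in any strain, and as the copies share their sequence they are not independent of each other. The log2 differences in set2Δ were -0.87 and -0.90, 1.83 and 1.86 times lower and short of the 2-fold call, at places 144 and 125 from the bottom of the 6632 rows. In set2-Y149F they were 0.04 and 0.02, and in set2-Y236F -0.34 and -0.36. Summed, the pair made up 0.932% of the FPKM of all annotated rows in the WT, 0.521% in set2Δ cells, 0.960% in Y149F cells and 0.704% in Y236F cells. How reads fitting both copies were counted is not known here, so the sum may count them more than once. The number of CUP1 repeats is known to vary between yeast strains, it was not measured here, and it cannot be told apart from RNA made per copy. RefSeq also places short non-coding genes on the opposite strand of both copies, which were not analysed here. YHR054C, which lies between the copies and within the identical stretch, so that its reads are not its own, was at 29.2, 22.0, 20.1 and 21.9 FPKM. RSC30, a gene of the RSC chromatin remodelling complex that holds the other copy of that sequence, was at 25.2, 22.8, 24.7 and 22.7 FPKM. CIC1, the neighbour 556 bases from CUP1-1 on the plus strand, was at 33.6, 24.9, 24.5 and 27.1 FPKM.

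The stretch before CUP1-1 is shown for the letters TTTTGCTG, a core of the known Cup2 sites, in capitals on either strand (chrVIII:212886-213005, minus strand, or 285 to 166 bases before the start codon).
CUP1-1 upstream: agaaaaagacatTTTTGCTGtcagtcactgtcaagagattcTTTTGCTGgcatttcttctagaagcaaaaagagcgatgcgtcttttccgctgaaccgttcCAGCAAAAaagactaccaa
There are 3 matches, at 273 and 244 bases and, on the opposite strand, at 184 bases, and CUP1-2 holds the same ones. At least 1 match stands before 4.03% of the 6002 genes and 3 or more before 6 of them. No other member holds these letters in its 500 bases, CRS5 included, which says nothing of Cup2 there.

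CRS5, the other metallothionein locus, went the other way from CUP1 in set2Δ and was higher than the WT average in every mutant. It was at 84.7 FPKM for the WT, with 172 for set2Δ, then 143 for the Y149F mutant and 157 for the Y236F mutant. The 3 mutants lay near each other, unlike for PCA1 and CTR1. The log2 differences were 1.02, 0.75 and 0.89, and that of set2Δ was just past the 2-fold call, with CUP1-2 the nearest below it in size. The summed CUP1 level was 105 times that of CRS5 in the WT, 27.9 times in set2Δ cells, 63.4 times in Y149F cells and 44.3 times in Y236F cells. Reads fitting both CUP1 copies may be counted more than once in these sums. The neighbour DFG16 was at 23.6 to 25.2 FPKM in all strains. A transcript antisense to DFG16, picked out after its values were seen, begins 39 bases before the start codon of CRS5 and reads away from it. It was at 1.39 FPKM in WT cells and 6.04 without Set2, and 3.85 and 4.39 with the Y149F and Y236F enzymes. A transcript antisense to AXL1, picked out likewise, begins 996 bases before the start codon of CTR1, and had 0.109, 2.06, 1.29 and 1.36 FPKM. Both were higher than the WT in each mutant, but both are on the authors' lists for all 3 mutants. Nothing is therefore read from this beside CRS5 or CTR1. HMS1, beyond the end of CRS5 on the other strand, was at 5.49, 8.80, 8.999 and 6.88 FPKM.

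CUP2, the gene of the copper-sensing activator, lies on the plus strand of chromosome VII from 191129 to 191806. Its order of strains differed from those of both metallothionein loci, at 70.3 FPKM in WT cells against 59.5 in set2Δ cells, 83.9 in Y149F cells and 102 in Y236F cells. The log2 differences of -0.24, 0.25 and 0.53 stayed under 2-fold. PMR1, the Golgi calcium and manganese pump gene that faces it across 660 bases, was at 74.0, 71.7, 59.9 and 49.2 FPKM, lowest in set2-Y236F where CUP2 was highest. YRB30, on its other side, was at 64.8, 57.3, 72.6 and 74.6 FPKM.

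Of 12 copper delivery genes, 0 were called in any mutant, beside 2.88% of all rows higher and 1.19% lower in set2Δ, 3.57% and 2.07% for the Y149F mutant and 3.47% and 1.87% for the Y236F mutant. Their medians were 0.01 in set2Δ cells, -0.08 in Y149F cells and -0.16 in Y236F cells, over members that went both ways. SCO1, a gene of copper delivery to cytochrome oxidase picked out after its values were seen, had 67.7, 51.6, 38.3 and 39.6 FPKM, and COX19, chosen likewise, had 102, 107, 163 and 142. ATX1, the chaperone gene that feeds Ccc2, was at 44.6 FPKM for the WT, with 67.7 for set2Δ, then 47.1 for the Y149F mutant and 48.1 for the Y236F mutant, with a log2 difference of 0.59 in set2Δ beside 0.57 for CCC2. FET3, the multicopper ferroxidase that Ccc2 supplies, was at 227, 258, 153 and 165 FPKM. SOD1, the copper-zinc superoxide dismutase, was at 2680, 2811, 3496 and 3631 FPKM. None of the 3 copper enzyme genes was called.

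Among 12 cadmium handling genes, PCA1 was the only one called in set2Δ, where 2.88% of all rows were higher and 1.19% lower. In the point mutants 0 were called, beside 3.57% higher and 2.07% lower for Y149F and 3.47% and 1.87% for Y236F. YCF1, the vacuolar transporter of metal-glutathione complexes, was at 54.0 FPKM in WT cells and 40.6 without Set2, and 45.5 and 41.8 with the Y149F and Y236F enzymes. YAP1, an activator of the oxidative and cadmium response, was at 79.6, 78.5, 99.4 and 85.1 FPKM. SMF2, a metal ion uptake gene, was lower than the WT in each mutant without reaching 2-fold, at 61.4 FPKM against 35.1, 38.4 and 31.7. SMF1, its relative, picked out after its values were seen, had 28.7, 18.1, 18.4 and 14.3 FPKM. Its log2 difference of -0.96 in set2-Y236F fell just short of the 2-fold call. Of 9 other P-type ATPase genes, 0 were called in set2Δ. SPF1, an ATPase gene of the endoplasmic reticulum, was lower in both point mutants (log2 of -1.22 and -1.23). It was at 106 FPKM in WT cells against 67.9 in set2Δ cells, 45.2 in Y149F cells and 44.8 in Y236F cells. Without the 7 members, 2 of the 43 remaining genes were higher and 0 lower in set2Δ, where 2.88% and 1.19% of all rows were, with a median of 0.00 beside -0.07 for all rows.

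**Figure D4:**
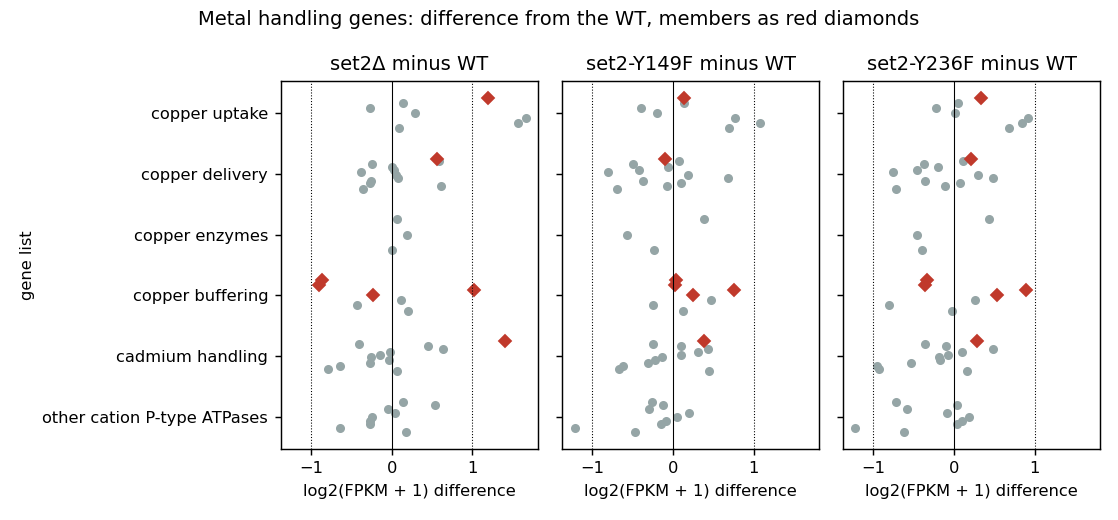
Each point is a gene of 1 of 6 metal handling lists, placed by its difference from the WT on log2(FPKM + 1) in the set2Δ, Y149F and Y236F mutants, with dotted lines at 2-fold and red diamonds for the 7 members. In set2Δ, PCA1 lies at 1.41 apart from the other cadmium genes and the CUP1 copies at -0.87 and -0.90, whereas in both point mutants all 7 diamonds lie within the lines.

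Antisense transcripts were listed over 6 of the 50 genes, 9 in all, where the whole list names 687 genes beside 6632 annotated rows. Beside PCA1 and CCC2 these genes were FRE1, SMF2 and the vacuolar ABC transporter genes BPT1 and VMR1. The higher one over BPT1 was at 1.16 FPKM for the WT, with 28.8 for set2Δ, then 6.72 for the Y149F mutant and 4.85 for the Y236F mutant, a log2 difference of 3.79 in set2Δ beside 3.70 for PCA1. BPT1 sense was at 37.9, 51.8, 40.5 and 35.1 FPKM, with a log2 difference of 0.44 in set2Δ where PCA1 had 1.41. Over FRE1 the antisense transcript spans the whole coding region, as over PCA1, at 2.79, 11.8, 5.33 and 5.67 FPKM, and FRE1 sense differed by 0.29. SMF2 has a pair of them, the higher of which was at 0.504 FPKM in WT cells and 8.31 without Set2, and 3.297 and 4.12 with the Y149F and Y236F enzymes, over a sense gene with a log2 difference of -0.79 in set2Δ. Of the pair over VMR1, the higher one had 0.323, 4.77, 0.911 and 0.191 FPKM and the other 0.195, 2.30, 0.197 and 0.147, so that both were below the WT in Y236F cells. PCA1 was alone among these 6 genes in having a sense difference past 2-fold in set2Δ. Of all rows, 2.88% were called higher there and 1.19% lower. As PCA1 was picked with this value known, nothing is read from its being alone.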

How the data were processed

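Strand-specific RNA-seq of 12 libraries was analysed from the authors' deposited FPKM sheet, which holds 1 average FPKM per strain. Per the submitters' processing notes, the tools included HTSeq 0.13.5, Cuffdiff and Cufflinks 2.2.1, TopHat2 2.1.1 and Trimmomatic 0.38, with sacCer3 as the build. Which of them gave the FPKM of annotated rows is not stated. Antisense transcripts, their positions and their sense genes came from the authors' lists, whose log2 CPM, deposited as an average over libraries, served only to check the order of the names. The FPKM sheet printed its antisense names in set2Δ-list order. The log2 of mean FPKM times width had a correlation across transcripts with that log2 CPM of -0.00184 with the names as printed and of 0.904 in alphabetical order, which was used. Fold changes, errors, p-values and adjusted p-values of the authors' own comparisons, including a sheet that holds nothing else, were not used.

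Differences were taken on log2(FPKM + 1) and called at 2-fold with Python 3.11.15 and pandas 2.3.3, after a check on simulated data. Tests over libraries could not be run. The members and the 6 gene lists were chosen with earlier results of these data known. Genes named are all members with their antisense transcripts and nearest annotated neighbours, list genes called in any mutant, 7 list genes named in any case (ATX1, MAC1, CTR3, SOD1, FET3, YCF1 and YAP1), and the 5 profiles nearest to PCA1; others were chosen after their values were seen. Of the 6632 rows, 5904 matched RefSeq, whose R64 assembly has the coordinates of sacCer3 and gave positions, sequences and coding lengths. Alternatives were other pseudocounts, median scaling, a 1.5-fold call, a filter on low values, the ratio of FPKM and the printed name order.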

Additional observations from a re-analysis of the deposited data

How the results depend on the processing

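No paired analysis was possible because each strain has 1 average and no column per library, so neither the replicate block nor leaving out a replicate was run. The counts of called members in set2Δ, 3 as reported, stayed at 3 with a pseudocount of 0.1, median scaling, a filter at a mean of 1 FPKM and the plain ratio of FPKM, the last chosen after seeing the data. A pseudocount of 10 left 0, with log2 differences of 0.955 for PCA1, 0.956 for CTR1 and 0.945 for CRS5, just short of the call. A 1.5-fold call gave 5, the CUP1 copies being lower. At 1.5-fold, set2-Y149F and set2-Y236F each had 1 member, CRS5, in place of 0. The antisense difference of PCA1 in set2Δ, set2-Y149F and set2-Y236F, reported as 3.70, 2.43 and 2.18, was 4.34, 3.004 and 2.72 with a pseudocount of 0.1, 1.83, 0.95 and 0.80 with 10, and 3.79, 2.51 and 2.26 with median scaling. With the antisense names as printed it was 0.50, 0.21 and 0.13, as the name then takes another transcript's values. The sense differences of the members were also recomputed with both pseudocounts and median scaling, and none of them changed sign.

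Over all 6632 rows, the rows called higher and lower in set2Δ numbered 191 and 79 as reported, 349 and 182 with a pseudocount of 0.1, 55 and 26 with 10, and 388 and 203 by the plain ratio. A 1.5-fold call gave 509 and 419. For set2-Y149F these were 237 and 137, 380 and 209, 101 and 65, and 424 and 231, with 641 and 627 at 1.5-fold, and for set2-Y236F 230 and 124, 381 and 199, 86 and 59, and 419 and 224, with 582 and 614 at 1.5-fold. Between set2-Y149F and set2-Y236F, 20 and 21 rows became 83 and 75, 5 and 6, and 110 and 100, with 161 and 125 at 1.5-fold. The absence of a value per library limits every statement here, and the depth behind each average is unknown.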

Other observations

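The labels give 3 libraries per strain, and the sources do not say how many entered each average. Of the values above 0 in the 4 columns, 53.5% to 55.0% had at most 15 significant digits once doubled and 20.5% to 21.4% once tripled, and 41.8% to 42.9% ended in the digit 5. No such shares were computed for averages of a known number of libraries, so these shares do not say how many entered. The rest of the values had more than 15 digits even once doubled. How many libraries entered each average was not tested.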
